A study of Mus musculus with 54 samples.

Results

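Integrins are cell surface receptors built from 1 alpha and 1 beta chain, and 10 of their genes were followed here across every group of a microglia co-culture experiment. The genes were Itga9, Itga4, Itga5, Itga6, Itgal, Itgam and Itgav, which encode alpha chains, and Itgb1, Itgb2 and Itgb5, which encode beta chains. They were taken by symbol from a count table of 16632 genes and were chosen as integrin chains of microglia. Itga9 leads the set because it was chosen by its measured values, which differed at 300 min. The comparison in which they differed is not known here, so untreated or aSyn-only samples may be among the values used. Itga9 at 300 min is therefore given as a description with no test. All 10 genes passed the filter on low counts and were among the 13169 genes tested.

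Integrins bind proteins of the extracellular matrix and counter-receptors on other cells, and they signal through adaptors such as talin and kindlin that attach their tails to actin. The alpha 9 and alpha 4 chains are close relatives that pair with beta 1 and bind osteopontin, fibronectin, tenascin C and VCAM-1. The alpha 5 chain with beta 1 is the classical fibronectin receptor, and alpha 6 with beta 1 binds laminin. Leukocytes carry beta 2 integrins: alpha L with beta 2 is LFA-1, which binds ICAM-1, and alpha M with beta 2 is complement receptor 3 (CD11b), a standard surface marker of microglia. Alpha V with beta 5 binds vitronectin and other ligands with an RGD sequence.

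The RNA came from primary microglia, immune cells that reside in brain tissue, grown from neonatal C57BL/6 mice. Per the labels' protocols, cells of pooled brains were cultured in mixed glial flasks with medium containing L929 cell supernatant and shaken off the astrocyte layer. The cells of Untreated_Ctrl received neither label, and those of aSyn_Donor received fluorescently labelled alpha-synuclein (aSyn, the protein that aggregates in Parkinson's disease) with no acceptors added. Donors were exposed to 1 µM labelled aSyn for 14 h, acceptors were stained with a violet cell dye for 15 min, and co-cultures of both ran 15, 30, 60, 150 or 300 min before flow sorting parted them. The groups Donors_0min and Acceptors_0min carry a time of 0 min. Donors were plated in dishes and acceptors in flasks, so the aSyn exposure, the vessel and the dye differ together between donors and acceptors and cannot be told apart in that comparison. Whether the untreated and the aSyn-only cells went through the sorter is not stated in the labels.

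The 14 groups held 54 libraries from 4 experiments, taken from the replicate number in the labels. Same-numbered untreated libraries were summed, which left 52 samples: 4 untreated, 4 aSyn-only, 22 donor and 22 acceptor samples. There were 3 donor and 3 acceptor samples at 0 min (none of experiment 4), 3 donor samples at 60 min (none of experiment 2) and 3 acceptor samples at 300 min (none of experiment 3). All other groups had 4. The labels give passage 3, 1, 2 and 2 for experiments 1 to 4, so passage and experiment go together. They do not say which animals each experiment used, so p-values measure the spread between these samples. Library totals ran from 7807389 to 15537493 counts. Experiment 4 stood apart in its facility numbers and in the share of Rn45s, a ribosomal RNA gene, which averaged 18.23% of its counts against 6.60% in the others. The microglial markers were detected in every group, at a summed level of 1621 to 5445 CPM (counts scaled to library size) in aSyn-only and 4169 to 7505 CPM in untreated samples. The low aSyn-only value was that of experiment 4, and the donors of that experiment were as low at every time, at 1384 to 1641 CPM, where donors of the other experiments had 4783 to 7432 CPM. The part of this difference in the results of experiment 4 was not tested.

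Of 15 other integrin chains in the table, Itgax, the alpha chain CD11c, and Itgb3 had the highest medians over all samples, at 6.66 and 5.06 CPM. Each of the other 13 had a median at or under 0.34 CPM. Among the 10 genes studied, the sample medians ran from 18.6 CPM for Itga5 to 286 CPM for Itgam. These libraries tag transcripts at their 3′ ends, and CPM here are not scaled to transcript length, so levels are not compared between genes. The smallest count of any of the 10 genes in any sample was 62 (Itgal, acceptors of experiment 2 at 15 min).

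Positions are those of the GRCm38 annotation, which has the same coordinates as the mm10 genome named in the submitters' processing notes. Itga9 (ENSMUSG00000039115.13) lies at chr9:118606690-118901003 on the plus strand. Its 3′ end overlaps Gm2415, an antisense transcript that is not listed in the count table. Itga4 lies at chr2:79255426-79333123 on the plus strand, and its 3′ end overlaps Cerkl on the opposite strand, which had 927 counts in total. Itgam, at chr7:128062640-128118491, overlaps Gm49368 (start 128062683) on the same strand, which is not listed in the table. Itgal lies on the same chromosome, at chr7:127296260-127335138. Itga5 lies at chr15:103344286-103366763 on the minus strand. Itga6, Itgav and Itgb1 lie at chr2:71745616-71858416, chr2:83724397-83806916 and chr8:128685654-128733200, all on the plus strand. Itgb2 and Itgb5 lie at chr10:77530252-77565708 and chr16:33829665-33949338, also on the plus strand. Whether strand was used in counting is not given in the sources used here, so reads of overlapping antisense genes cannot be told apart from those of the members.

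Promoter windows from RefSeq (GRCm38.p6) were matched for 7 of the 10 genes. The window listed for Itga9 starts 105002 bases inside the gene and is not shown. The 250 bases upstream of the listed start are printed for Itga4, Itga5 and Itgb1, whose transcripts differed in donors or aSyn-only cells in the results that follow. The windows are chr2:79255176-79255425 (plus strand), chr15:103366792-103367041 (minus strand) and chr8:128685404-128685653 (plus strand), each printed 5′ to 3′ in the direction of its gene. Capitals mark matches, on either strand, to the PU.1 core GAGGAA (reverse complement TTCCTC) and the GC box GGGCGG (reverse complement CCGCCC).
Itga4: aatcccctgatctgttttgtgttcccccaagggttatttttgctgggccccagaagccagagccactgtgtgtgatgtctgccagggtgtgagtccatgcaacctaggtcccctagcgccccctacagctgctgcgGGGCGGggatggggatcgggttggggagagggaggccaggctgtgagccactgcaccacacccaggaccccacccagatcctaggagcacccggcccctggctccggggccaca
Itga5: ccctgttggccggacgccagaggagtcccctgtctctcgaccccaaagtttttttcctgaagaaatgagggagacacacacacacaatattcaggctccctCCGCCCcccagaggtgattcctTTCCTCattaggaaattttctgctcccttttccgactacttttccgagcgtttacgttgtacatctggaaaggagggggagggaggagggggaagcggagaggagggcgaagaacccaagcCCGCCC
Itgb1: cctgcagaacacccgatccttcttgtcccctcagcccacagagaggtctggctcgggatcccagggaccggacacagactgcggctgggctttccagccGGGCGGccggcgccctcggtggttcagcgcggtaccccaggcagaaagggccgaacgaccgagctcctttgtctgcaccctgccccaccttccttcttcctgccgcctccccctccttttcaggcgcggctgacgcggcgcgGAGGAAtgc
Itga4 held 1 GC box, Itga5 held 1 PU.1 core and 2 GC boxes, and Itgb1 held 1 of each. Among 32851 promoter windows of 250 bases, 23.3% held the PU.1 core and 32.7% the GC box. The AP-1 motif TGANTCA, present in 6.75% of windows, had no match in any of the 7 members' windows. Overlap between motifs was allowed, and a match is a description of letters only.

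Itga9 separated donors from acceptors in every sample. Its level was 34.4 to 84.9 CPM (median 58.2) in the 22 donor samples and 11.6 to 27.6 CPM (median 17.7) in the 22 acceptor samples, with no overlap. Untreated samples measured 31.4 to 36.0 CPM, above every acceptor sample and overlapping the donors only at the lowest donor sample (experiment 4 at 150 min). The aSyn-only samples spanned 32.7 to 60.0 CPM. The pooled ranges include the 300 min samples that led to its choice. Of the 13169 genes tested, 26 (0.197%) had donor and acceptor samples that did not overlap over all times. Of the 10 genes, Itga9 and Itgal were among them. That share includes the 300 min samples too, so nothing is read from it for Itga9.

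The Itga9 values per sample are given in order of experiment. The untreated samples of experiments 1 to 4 measured 31.6, 31.4, 36.0 and 32.3 CPM. The aSyn-only samples measured 60.0, 56.1, 44.3 and 32.7 CPM. The untreated samples lay close together, whereas the aSyn-only samples spread downward to the untreated level in experiment 4. Donors measured 80.99, 63.4 and 61.2 CPM at 0 min (experiments 1 to 3) and 79.5, 64.6, 55.2 and 38.3 CPM at 15 min. They measured 75.2, 53.8, 54.3 and 39.3 CPM at 30 min and 84.9, 62.8 and 38.6 CPM at 60 min (experiments 1, 3 and 4). Experiment 1 was the highest and experiment 4 the lowest donor sample at each time that held both. Donors measured 71.1, 52.2, 53.4 and 34.4 CPM at 150 min and 83.5, 70.98, 54.7 and 40.2 CPM at 300 min. Acceptors measured 11.6, 17.1 and 25.6 CPM at 0 min and 17.5, 15.7, 22.7 and 27.6 CPM at 15 min. In acceptors the low values came from experiments 1 and 2, opposite to the order in donors. Acceptors measured 14.5, 16.0, 21.2 and 17.9 CPM at 30 min and 17.8, 16.8, 19.1 and 23.9 CPM at 60 min. They measured 13, 14.4, 24.8 and 24.3 CPM at 150 min, and 13.58, 17.3 and 25.0 CPM at 300 min (experiments 1, 2 and 4).

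**Figure D1:**
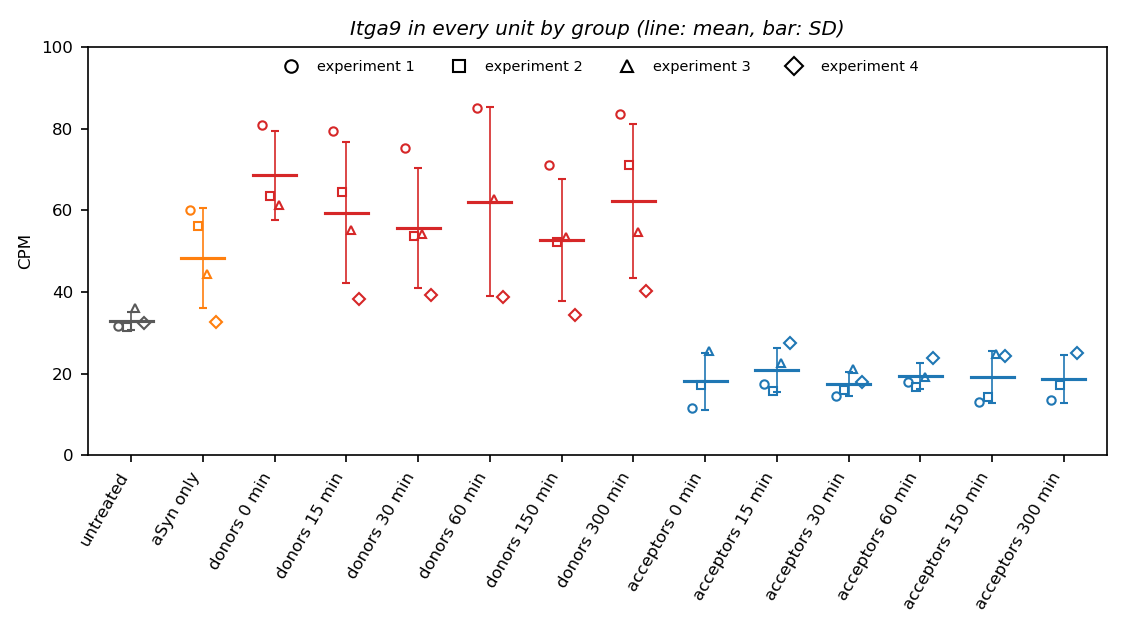
Itga9 in CPM (y axis) in the 14 groups (x axis), with one symbol per sample shaped by experiment, the group mean as a line and the SD as a bar. All 22 donor samples (34.4 to 84.9 CPM) lie above all 22 acceptor samples (11.6 to 27.6 CPM), and the untreated samples lie at 31.4 to 36.0 CPM.

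Ordered by group mean, Itga9 was lowest in the 6 acceptor groups, from 17.4 ± 2.88 CPM (SD, n = 4) at 30 min to 20.9 ± 5.36 CPM (SD, n = 4) at 15 min. Untreated cells followed at 32.8 ± 2.14 CPM (SD, n = 4) and aSyn-only cells at 48.3 ± 12.3 CPM (SD, n = 4). The 6 donor groups were highest, from 52.8 ± 15.0 CPM (SD, n = 4) at 150 min to 68.5 ± 10.8 CPM (SD, n = 3) at 0 min. Within the acceptor groups and within the donor groups, neighbouring means differed by less than their SDs. Untreated and aSyn-only samples overlapped, as did aSyn-only samples and all donor groups except that at 0 min, where 5.6% of all genes did not overlap. The donor group at 0 min held no sample of experiment 4, which gave the lowest donor sample at every other time (34.4 to 40.2 CPM). Its higher mean and lack of overlap are therefore not comparable with those of the other times.

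Donors were compared with acceptors at each time with edgeR's quasi-likelihood test over all 14 groups, with Benjamini-Hochberg adjustment over the genes tested and a threshold of 0.05. Itga9 was 3.77-fold higher in donors at 0 min (log2 fold change 1.92, SE 0.32, adjusted p = 0.00123) and 2.84-fold higher at 15 min (1.51, SE 0.28, adjusted p = 0.00154). It was 3.20-fold higher at 30 min (1.68, SE 0.28, adjusted p = 0.000901) and 3.21-fold higher at 60 min (1.68, SE 0.29, adjusted p = 0.0019). At 150 min it was 2.75-fold higher (1.46, SE 0.27, adjusted p = 0.00629). These 5 times use other libraries than the 300 min comparison, from the same experiments. At 300 min the fitted log2 difference was 1.74, given without a test. The gap was thus already present in the groups labelled 0 min, which held experiments 1 to 3 only. At the 5 times from 0 to 150 min each of the 18 same-numbered donor and acceptor pairs had more Itga9 in the donor. Pairs of different times, here and for the other genes, come from the same 4 experiments and are not independent.

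The size of the Itga9 gap differed by experiment. The donor to acceptor ratio of same-numbered samples was 4.55 to 6.96 in experiment 1, 3.37 to 4.11 in experiment 2, 2.15 to 3.30 in experiment 3 and 1.39 to 2.20 in experiment 4. Leaving out experiment 4 raised the log2 fold change to between 1.77 and 2.05 at 15 to 150 min, with every one of those calls retained. Leaving out any other single experiment ended the call at some times: without experiment 1 the adjusted p was 0.090, 0.078 and 0.13 at 0, 60 and 150 min. Without experiment 2 it was 0.12, 0.10, 0.058 and 0.18 at 0, 15, 60 and 150 min, and without experiment 3 it was 0.081 and 0.061 at 60 and 150 min. At 30 min the call held in every such fit. None of the fits that left out an experiment used the block.

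Against the reference of each arm, donors and acceptors lay on opposite sides. At 0 to 150 min acceptors had less Itga9 than the untreated sample of their experiment in 19 of 19 pairs, with log2 fold changes between -0.92 and -0.65. These pairs reuse the same 4 untreated samples and are not independent. The untreated samples may also have served in choosing Itga9, so acceptor results against them may not be independent of that choice. No acceptor group of these times overlapped the untreated samples in Itga9. The share of all genes without overlap was 6.17% at 0 min, 3.54% at 15 min, 3.55% at 30 min, 4.15% at 60 min and 4.56% at 150 min. At 300 min, where Itga9 was chosen, the groups did not overlap either (5.26% of all genes), and nothing is read from that. These differences did not pass the test across all genes, with an adjusted p of 0.267 at 30 min, the lowest of the times tested. With the experiment as a block, the 30 min difference passed (adjusted p = 0.0402) and those at 0, 15, 60 and 150 min did not (adjusted p 0.080 to 0.19). The share of all genes called with the block was 0.995%, 2.25%, 3.6%, 4% and 4.78% at 0 to 150 min and 0.623% at 300 min. At 0 to 150 min donors had more Itga9 than the aSyn-only sample of their experiment in 16 of 18 pairs, with log2 fold changes of 0.13 to 0.51, and none of the times tested passed (adjusted p = 1). Those pairs likewise reuse 4 aSyn-only samples, which may also have served in choosing Itga9. In aSyn-only against untreated cells Itga9 was 1.90, 1.78, 1.23 and 1.01 times as high in experiments 1 to 4. The fitted log2 fold change was 0.56 (95% interval 0.01 to 1.10) and did not pass (adjusted p = 0.276, or 0.135 with the block).

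Itga4, the closest relative of Itga9, was also higher in donors than in acceptors, with smaller gaps. Its aSyn-only mean of 59.7 CPM lay within the range of the donor group means (52.5 to 62.4 CPM), and its untreated mean of 39.0 CPM lay within that of the acceptor group means (29.1 to 41.4 CPM). Untreated samples measured 32.5, 43.4, 48.7 and 31.4 CPM and aSyn-only samples 84.2, 54.2, 47.5 and 53.0 CPM in experiments 1 to 4. At 15 min donors measured 73.8, 57.1, 56.0 and 55.9 CPM and acceptors 33.0, 36.5, 37.6 and 28.8 CPM, without overlap (5.85% of all genes at that time). Over all times the ranges were 41.6 to 87.5 CPM in donors and 20.8 to 48.3 CPM in acceptors, and 20 of 21 pairs were higher in the donor. Itga4 was higher in donors at 15 min (1.79-fold, log2 0.84, SE 0.21, adjusted p = 0.0351) and at 30 min (1.78-fold, log2 0.84, SE 0.21, adjusted p = 0.0365). Log2 fold changes of 0.73, 0.88 and 0.85 at 0, 60 and 150 min passed only with the experiment as a block (adjusted p = 0.0197, 0.0020 and 0.00178), and 0.59 at 300 min passed in neither fit. The call at 15 min was lost without experiment 1, 2 or 4 (adjusted p = 0.25, 0.15 and 0.074), and so was that at 30 min (0.30, 0.14 and 0.054). With aSyn alone the log2 fold change was 0.62 (adjusted p = 0.106, or 0.00741 with the block), with the aSyn-only sample lower in experiment 3. The share of Itga9 in the sum of Itga9 and Itga4 CPM was 44.7% ± 5.86 (SD, n = 4) in aSyn-only and 46.2% ± 4.52 (SD, n = 4) in untreated samples. The difference was within this spread (two-sided exact permutation p = 0.629). The permutation exchanged the samples without regard to their pairing by experiment, and the smallest p it can give is 0.0286.

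Itgal, the alpha chain of LFA-1, had the widest range of the 10 genes, 35.5-fold between its lowest and highest sample. Untreated samples measured 7.06, 18.1, 25.5 and 7.58 CPM and aSyn-only samples 61.5, 50.3, 80.2 and 229.1 CPM in experiments 1 to 4. All aSyn-only samples lay above all untreated ones (8.1% of all genes did not overlap), with experiment 4 the highest in one group and among the 2 lowest in the other. Itgal rose 7.23-fold with aSyn alone (log2 2.85, SE 0.69, edgeR adjusted p = 0.0159). The ratios per experiment were 8.70, 2.78, 3.14 and 30.2. Without experiment 4 the log2 fold change was 1.93 (adjusted p = 0.14), and without experiment 1 it was 2.84 (adjusted p = 0.072), so the call rests on those experiments. With all experiments, the call held with the experiment as a block (edgeR adjusted p = 2.34e-05).

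In co-culture Itgal was 48.3 to 250.6 CPM in the 22 donor samples and 7.97 to 45.1 CPM in the 22 acceptor samples, with no overlap. At 15 min donors measured 77.9, 54.8, 137 and 245.3 CPM and acceptors 8.54, 7.996, 37.1 and 18.3 CPM in experiments 1 to 4. The lowest same-numbered ratio at any time was 2.57 and the highest 19.2. Itgal was higher in donors at 15 min (7.10-fold, edgeR adjusted p = 0.0310), 30 min (6.498-fold, adjusted p = 0.0439) and 60 min (8.10-fold, adjusted p = 0.0425). At 0, 150 and 300 min the fold was 4.92, 5.49 and 7.55, and the test passed only with the experiment as a block (adjusted p = 0.00122, 0.000221 and 0.0015). Each of the 3 unblocked calls was lost without experiment 1, 2 or 4 (adjusted p 0.11 to 0.23), and those at 30 and 60 min also without experiment 3 (0.054 and 0.076). Acceptors against untreated cells had log2 fold changes of 0.19 to 0.54 and passed at no time (adjusted p 0.904 to 0.998).

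Itgam and Itgb2, the other 2 genes of the beta 2 family, had smaller differences than Itgal. Itgam measured 342, 199, 209 and 344 CPM in untreated and 316, 181, 278 and 599 CPM in aSyn-only samples. It was lower with aSyn in experiments 1 and 2 and higher in experiments 3 and 4 (log2 fold change 0.33, adjusted p = 0.715). Experiment accounted for 61.9% of the variance of its log2 CPM after group, against 1.26% for Itga9. These shares count only shifts common to all groups. For Itga9 the order of experiments was opposite in donors and acceptors, so that dependence lies in its residual of 14.7%. Itgb2, the shared beta chain, measured 245.5, 202, 248.6 and 212 CPM in untreated and 348, 264.3, 392 and 243.9 CPM in aSyn-only samples. It was higher with aSyn in 4 of 4 experiments, with a log2 fold change of 0.46 that passed only with the block (adjusted p = 0.144 without and 0.00682 with it). In co-culture Itgb2 was higher in the donor in 20 of 21 pairs, with log2 fold changes of 0.29 to 0.46, and passed at 15 min with the block (adjusted p = 0.0133). The share of Itgal in the sum of Itgal and Itgam CPM was 22.0% ± 4.66 (SD, n = 4) in aSyn-only and 5.86% ± 4.47 (SD, n = 4) in untreated samples. The groups did not overlap (two-sided exact permutation p = 0.0286, or 0.0571 after adjustment over the 2 shares compared). This test too exchanged the samples without regard to their pairing by experiment, and 0.0286 is the smallest p it can give.

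LFA-1 is abundant on lymphocytes and neutrophils, so their markers are given beside it. Of 8 T and NK cell markers, 3 were listed in the table, Cd3e, Cd3g, Trbc2, Nkg7 and Ncr1 being not listed. Over all samples the medians of those 3 were 3.33 CPM for Cd4, 0.154 CPM for Klrb1c and 0 CPM for Cd8a. The sum of the 3 was 0.175 to 10.2 CPM in aSyn-only and 1.43 to 19.3 CPM in untreated samples. The aSyn-only sample of experiment 4, with the highest Itgal of that group, had the lowest sum, 0.175 CPM. Of 8 neutrophil markers, 2 were listed, with a sum of 0.284 to 7.68 CPM in aSyn-only and 0 to 0.514 CPM in untreated samples, highest in the aSyn-only sample of experiment 4. With the block 1 of these 2 was called higher with aSyn. In co-culture the neutrophil sum was 4.76 to 9.4 CPM in donors of experiment 4, at most 2.16 CPM in donors of the other experiments and at most 1.25 CPM in acceptors, and neither marker was called between donors and acceptors in either fit. Of 3 B cell markers, 2 were listed, with a sum of at most 0.0873 CPM in aSyn-only and 0.0436 CPM in untreated samples. Of 5 monocyte markers, 2 were listed, with a sum of 0.636 to 5.6 CPM in aSyn-only and 1.2 to 2.32 CPM in untreated samples. The part of the cells behind any of these markers in the Itgal result was not tested.

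**Figure D2:**
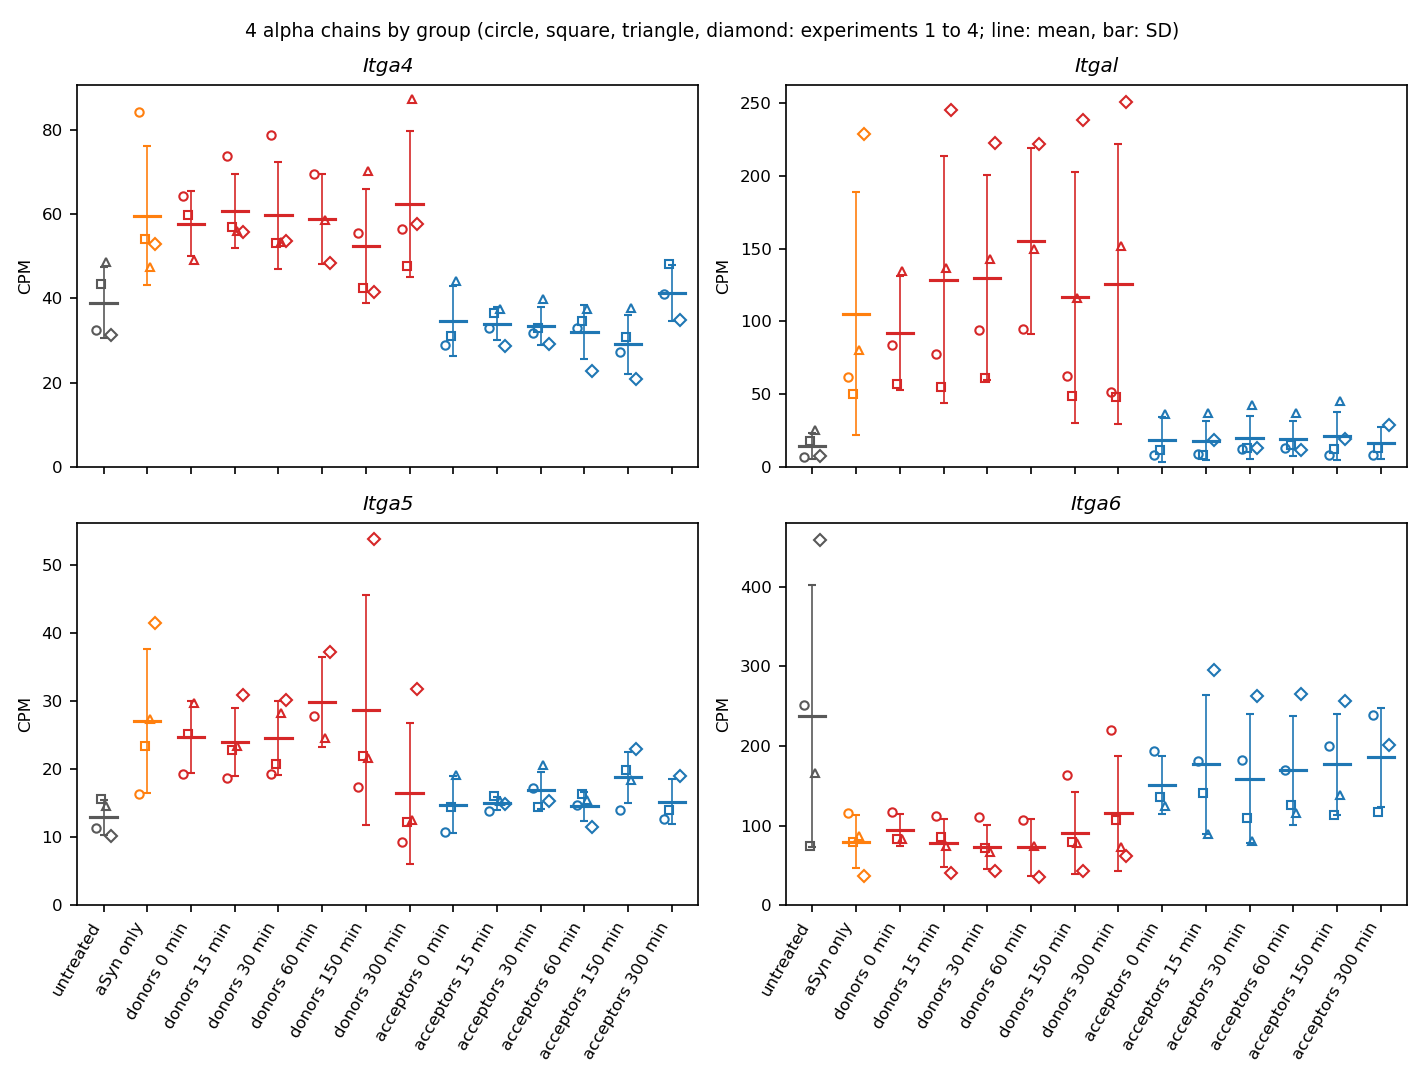
Itga4, Itgal, Itga5 and Itga6 in CPM (y axes, each from 0) in the 14 groups (x axes), with one symbol per sample shaped by experiment, the group mean as a line and the SD as a bar. Itgal of donors (48.3 to 250.6 CPM) lies above Itgal of acceptors (7.97 to 45.1 CPM), and Itga6 runs the other way within each pair.

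Itga5, the alpha chain of the fibronectin receptor, measured 11.3, 15.6, 14.7 and 10.2 CPM in untreated and 16.3, 23.5, 27.4 and 41.5 CPM in aSyn-only samples. The groups did not overlap (8.1% of all genes did not), and the ratio per experiment was 1.44, 1.51, 1.87 and 4.06. It rose 2.10-fold (log2 1.07, SE 0.30, edgeR adjusted p = 0.0431). The call was lost on leaving out any single experiment (adjusted p 0.061 to 0.22), with a log2 fold change of 0.70 without experiment 4, and held with the block (adjusted p = 0.00228). In co-culture it was higher in the donor in 19 of 21 pairs. The difference passed only at 60 min with the block (log2 1.04, adjusted p = 0.164 without and 0.0140 with it). At 300 min donors measured 9.27, 12.2, 12.6 and 31.8 CPM, lower than the aSyn-only sample in 4 of 4 experiments (log2 fold change -0.72, unadjusted p = 0.0199, adjusted p = 1). The log2 difference from acceptors at that time was 0.11 and turned to -0.24 without experiment 4 (adjusted p = 0.855).

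Itga6, the laminin-binding alpha chain, measured 251.3, 73.8, 166 and 459 CPM in untreated and 116, 79.7, 86.5 and 36.3 CPM in aSyn-only samples. It was lower with aSyn in experiments 1, 3 and 4 and slightly higher in experiment 2, with the widest gap in experiment 4. The log2 fold change of -1.58 (SE 0.48) did not pass (edgeR adjusted p = 0.0642), but did with the block (0.00811). It was -0.79 without experiment 4 (adjusted p = 0.37). The sum of 8 astrocyte markers was also lower with aSyn in experiments 3 and 4, but went the opposite way to Itga6 in experiments 1 and 2. That sum was 11.3, 18.8, 77.7 and 139 CPM in the untreated samples of experiments 1 to 4 and 13.9, 11.2, 16.7 and 29.3 CPM in the aSyn-only samples. The 7 markers of the oligodendrocyte lineage summed to a median of 203.8 CPM in untreated (highest 573) and 137.3 CPM in aSyn-only samples (lowest 79.2). This lineage sum went the same way as Itga6 in each experiment. It was lower with aSyn in experiments 1, 3 and 4 and slightly higher in experiment 2. In experiments 1, 2 and 4 it was 199.5, 115.7 and 208.1 CPM in untreated and 157.8, 116.9 and 79.2 CPM in aSyn-only samples. Of the astrocyte and lineage markers, 0 passed without the block and 5 of 8 and 3 of 7 were called lower with it. Fewer cells of a type and less RNA per cell cannot be told apart in bulk samples, and the part of these cells in the Itga6 difference was not tested. In co-culture Itga6 was lower in the donor in 21 of 21 pairs, with log2 fold changes of -1.22 to -0.68, and passed at no time in either fit (adjusted p 0.0655 to 0.505 with the block). At 15 min, the astrocyte sum was 9.83 to 19.2 CPM in donors and 11.5 to 42.3 CPM in acceptors. At 300 min it was 14.2 to 35.3 CPM in donors and 7.59 to 31.6 CPM in acceptors. The median log2 fold change of the 8 astrocyte markers between donors and acceptors was -0.81 at 0 min, -1.37 at 15 min, -0.28 to -0.26 at 30 to 150 min and 0.37 at 300 min. The lineage sum at 15 min was 65.03 to 146.5 CPM in donors and 89.51 to 241.6 CPM in acceptors. At 300 min it was 76.3 to 171.5 CPM and 76.81 to 105.4 CPM, with no acceptor sample of experiment 3. The median log2 fold change of the 7 lineage markers was -0.03 at 0 min, -0.14 at 15 min and -1.13 at 30 min. It was -0.18, -0.37 and 1.06 at 60, 150 and 300 min.

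Itgb1, the beta chain shared by alpha 4, 5, 6 and 9, went opposite to Itga9 and Itga4 by a small amount. Untreated samples measured 331, 252.9, 285 and 286 CPM and aSyn-only samples 268.1, 199.6, 237.995 and 213 CPM, lower in 4 of 4 experiments. The log2 fold change was -0.33 (SE 0.14, adjusted p = 0.208) and passed with the block (adjusted p = 0.00129). In co-culture Itgb1 was lower in the donor in 21 of 21 pairs, with log2 fold changes of -0.35 to -0.23. These passed at 0, 15, 30, 60 and 150 min with the block (adjusted p 0.0016 to 0.038) and at no time without it. Group accounted for 52.2% and experiment for 40.3% of the variance of its log2 CPM.

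Itgav and Itgb5, which pair with each other, passed in none of the 19 comparisons in either fit. Itgav measured 58.7, 44.7, 55.9 and 71.9 CPM in untreated and 56.4, 53.4, 59.1 and 51.8 CPM in aSyn-only samples (log2 fold change -0.07, 95% interval -0.47 to 0.34). Itgb5 measured 120, 81.8, 98.3 and 133 CPM in untreated and 122, 71.9, 91.9 and 39.9 CPM in aSyn-only samples (log2 fold change -0.41, 95% interval -1.05 to 0.23). The low aSyn-only value of Itgb5 came from experiment 4, and donors of that experiment were low at every time as well, at 42.6 to 57.7 CPM.

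**Figure D3:**
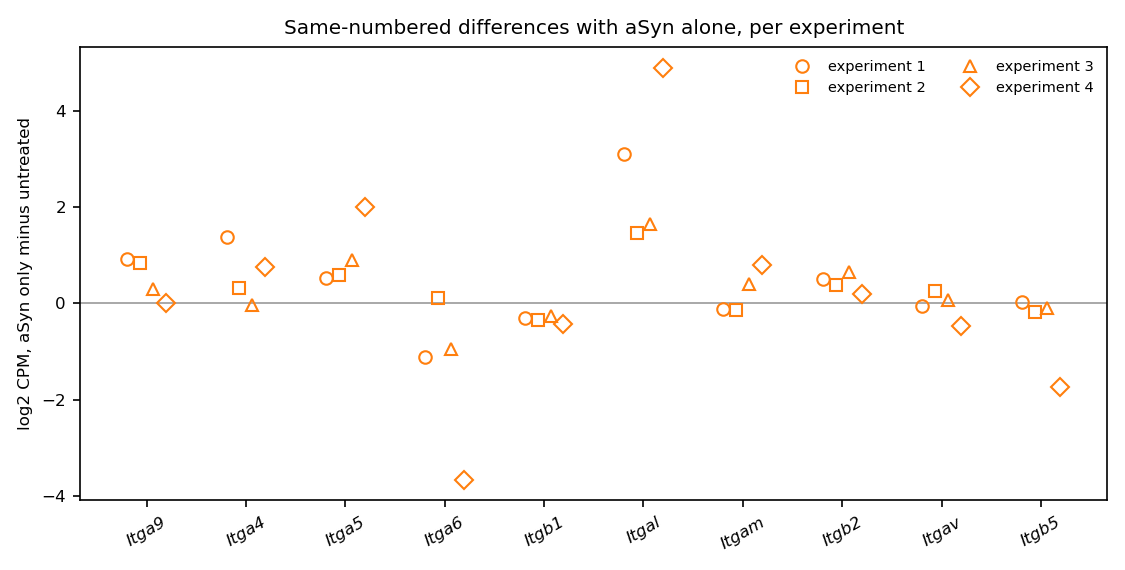
Log2 CPM of the aSyn-only sample minus that of the untreated sample of the same experiment (y axis) for the 10 genes (x axis), one symbol per experiment. Itga9, Itgal, Itga5 and Itgb2 lie above 0 and Itgb1 below 0 in all 4 experiments. Experiment 4 gives the widest difference, in either direction, for Itgal, Itga5, Itga6, Itgb5, Itgam, Itgav and Itgb1.

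With aSyn alone, 2 of the 10 genes were called without the block, both higher (Itga5 and Itgal), where 2.5% of all genes were called, 1.6% as higher and 0.896% as lower. With the block 6 were called, 4 higher (Itga4, Itga5, Itgal, Itgb2) and 2 lower (Itga6, Itgb1), where 19.2% of all genes were called, 8.95% as higher and 10.2% as lower. The median log2 fold change of the 10 genes was 0.39, beside -0.04 over all genes tested. Between donors and acceptors, 1 of 10 was called at 0 min (0.251% of all genes), 3 at 15 min (0.888%), 3 at 30 min (0.805%), 2 at 60 min (0.418%) and 1 at 150 min (0.167%). All were higher in donors. Without Itga9, which was chosen for its values at 300 min, 0, 2, 2, 1 and 0 of the 9 others were called at these times. At 300 min 0 of the 9 genes other than Itga9 were called (0.0304% of all genes), with 2 at an unadjusted p under 0.05 and 1 called by DESeq2. With the block the counts were 4, 5, 4, 5 and 4 of 10 at 0 to 150 min and 1 of 9 at 300 min. Of the 9 genes other than Itga9, 2, 3, 2, 3 and 2 were higher at 0 to 150 min with the block, and 1 was lower at each of those times. The blocked background was 4.28%, 9.57%, 10.8%, 6.7%, 5.19% and 1.38% of all genes.

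Against the reference of each arm, Itga9 in acceptors at 30 min, with the block, was the single call among the 10 genes. Donors against aSyn-only cells gave 0 calls at every time in either fit and by DESeq2, with 0 of 10 at an unadjusted p under 0.05 up to 150 min and 1 of the 9 others at 300 min (Itga5). Among all genes tested, 0% were called at 0 to 150 min and 0.0304% at 300 min, or 0.304% with the block. Acceptors against untreated cells gave 0 calls without the block and by DESeq2, with 1 (Itga9) at an unadjusted p under 0.05 at each time to 150 min and 0 of the 9 others at 300 min. The background was 0% at 0, 15 and 300 min, 0.114% at 30 min, 0.0683% at 60 min and 0.137% at 150 min. These comparisons share their untreated or aSyn-only samples across times. The F tests of change over time called 0 of the 9 genes in donors (0.0607% of all genes), 0 in acceptors (0.00759%) and 0 for the donor-acceptor difference (0%), with 0 in each with the block and by DESeq2. The nearest was Itga5 over time in donors, with an edgeR adjusted p of 1 without and 0.355 with the block.

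**Figure D4:**
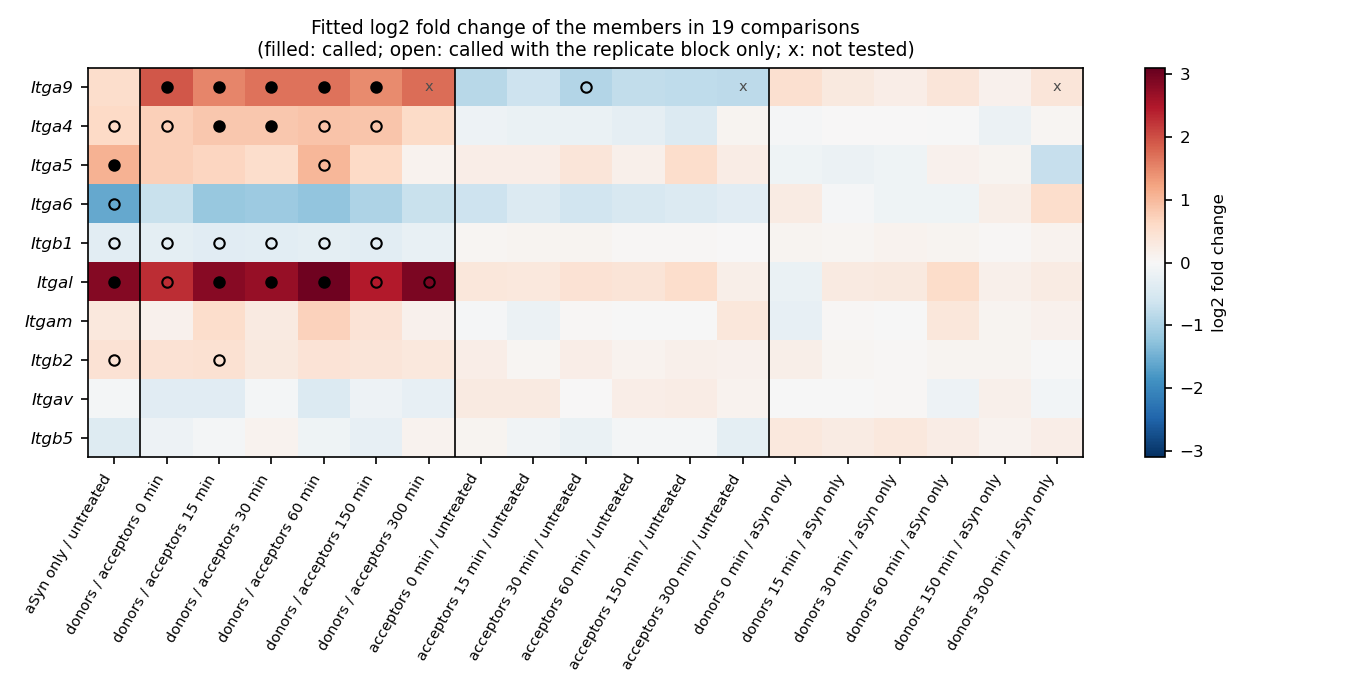
Fitted log2 fold change (colour) of the 10 genes (rows) in the 19 pairwise comparisons (columns, first-named group over second), with filled circles for calls, open circles for calls made only with the experiment as a block, and x where Itga9 at 300 min was not tested. Calls stand in the aSyn-only and donor-acceptor columns, and 1 open circle marks Itga9 in acceptors at 30 min against untreated cells.

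The genes whose pattern was most like that of Itga9 over the 52 samples, on log2 CPM centred within each experiment, were Sorl1 (Pearson r 0.89), Ap1b1 (0.87), Slc30a1 (0.86), Camk2d (0.86) and Tmem51 (0.86). These samples share groups and libraries, so the correlation is a description with no p. Sorl1, a sorting receptor of the endosome, measured 17.7 ± 0.82 CPM (SD, n = 4) in acceptors and 28.5 ± 6.34 CPM (SD, n = 4) in donors at 15 min, with 24.2 ± 4.16 CPM (SD, n = 4) in untreated cells. Among 13168 other genes Itga4 ranked at 38 (r 0.80) and Itgal at 55 (r 0.78), while Itgb1 had r -0.72. Between the other members, Itgal and Itga4 had r 0.86, Itgal and Itga6 -0.86, and Itgal and Itgb1 -0.88.

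Other genes of integrin biology were read from lists. Of 32 tested genes of integrin activation and adhesion machinery, 1 was lower with aSyn alone and 0 higher, or 6 and 2 with the block. Among all genes 0.896% were lower and 1.6% higher, or 10.2% and 8.95% with the block, and the counts of each list are read beside these shares. The 1 was Tln2, which encodes a talin and measured 21.8 ± 5.65 CPM (SD, n = 4) in untreated and 3.83 ± 2.14 CPM (SD, n = 4) in aSyn-only samples (log2 -2.497, edgeR adjusted p = 0.0199). Of 26 tested ligands, 1 was higher (1.6% of all genes), or 6 with 1 lower with the block (8.95% and 10.2% of all genes). It was Icam1, the ligand of LFA-1, at 52.5 ± 22.9 CPM (SD, n = 4) in untreated and 111 ± 38.4 CPM (SD, n = 4) in aSyn-only samples (log2 1.08, edgeR adjusted p = 0.0384).

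Of 17 tested membrane partners, 2 were higher (1.6% of all genes), or 3 with 2 lower with the block (8.95% and 10.2% of all genes). Tgm2, a transglutaminase that acts as an integrin co-receptor for fibronectin, rose from 5.90 ± 4.24 CPM (SD, n = 4) to 83.5 ± 39.4 CPM (SD, n = 4) (log2 3.82, edgeR adjusted p = 0.00121). Sdc1, the proteoglycan syndecan 1, rose from 3.16 ± 1.87 CPM (SD, n = 4) to 15.3 ± 6.94 CPM (SD, n = 4) (log2 2.26, edgeR adjusted p = 0.0283). Of 6 tested other integrin chains, 0 were called in either fit and 0 had an unadjusted p under 0.05. The smallest p belonged to Itgb3, at 11.4 CPM in untreated and 4.31 CPM in aSyn-only samples (log2 -1.40, edgeR adjusted p = 0.356), followed by Itga8, at 0.54 and 0.13 CPM (log2 -1.92, edgeR adjusted p = 0.437). Between donors and acceptors, Tgm2 was the 1 listed gene called without the block, higher in donors at 15 min (log2 2.74, edgeR adjusted p = 0.0280) and 30 min (log2 2.76, edgeR adjusted p = 0.0263). The blocked fit at 15 min differed: 4 machinery genes were higher and 2 lower, 5 ligands were higher, and 5 partners were higher and 1 lower (9.57% of all genes called). At 30 min the blocked counts were 4 and 4 for the machinery, 5 and 1 for the ligands and 4 and 1 for the partners (10.8% of all genes called). At 0, 60, 150 and 300 min the blocked counts in either direction were 1, 3, 4 and 0 for the machinery, 4, 3, 2 and 0 for the ligands and 5, 6, 3 and 1 for the partners, with 1 other chain lower at 60 min. Osteopontin (Spp1), a ligand of alpha 4 and alpha 9, measured 3618 CPM in untreated and 4771 CPM in aSyn-only samples (log2 0.40, edgeR adjusted p = 0.675). Median log2 fold changes with aSyn alone were -0.21 for the machinery, -0.11 for the ligands, 0.21 for the partners and -1.01 for the other chains, beside -0.04 over all genes. Of the 6 other chains, Itga10, Itga2b, Itga7 and Itga8 had medians of 0.34, 0.28, 0.26 and 0.11 CPM over all samples. The value of -1.01 therefore rests mostly on genes near the floor.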

How the data were processed

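RNA of primary mouse microglia was read near transcript 3′ ends (QuantSeq forward kit) as 50 bp single reads, per the labels' protocols. The submitters' processing notes name STAR, Partek, DESeq2 and mm10, with no versions. The authors deposited raw counts per gene symbol for 54 libraries, and only these were used. The counting program and its strand setting are not given in the sources used here. No molecular identifiers are stated.

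Groups were compared with edgeR 4.0.16 (R 4.3.3, limma 3.58.1): TMM scaling, genes kept by filterByExpr (minimum count 10), and the quasi-likelihood test over all 14 groups, called at a Benjamini-Hochberg adjusted p under 0.05. CPM are on TMM-scaled totals, and log2 CPM for correlations used a prior count of 2. Untreated libraries sharing a number were summed, their counts differing by a chi-square of 10.3 to 12.1 per degree of freedom against 24.2 to 288 for other pairs. Replicate numbers pair the samples: same-numbered deviations from group means correlated at 0.339 to 0.593 on average over 19 comparisons, and at 0.199 or more in every pair. Values with the number as a block are therefore given where they change a call. Fits were tested on simulated data. Alternatives were DESeq2 1.42.0, RLE factors, no filter, Rn45s left out, untreated libraries apart, only the groups compared, the block, and leaving out each experiment. Each alternative was run on its own, so fits that left out an experiment did not use the block. The members, the gene lists and the tests were chosen with earlier results of these data known. Named genes are all members, of each list the called genes (up to 4 per direction, or where none is called the 2 with the smallest p) and the 5 genes most like Itga9. Spp1, Itgax and the Gm and Cerkl overlaps were named outside that rule. The contrast of donor and acceptor effects in the closing section was added after the data were seen.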

Additional observations from a re-analysis of the deposited data

Results flagged for a closer look

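Some samples stood far from the other 3 of their group, with a gap to the nearest that filled most of the group's range. Itga4 was high in donors of experiment 1 at 15 min (73.85 CPM) and 30 min (78.85 CPM). Itga5 was high in donors of experiment 4 at 150 min (53.86 CPM) and 300 min (31.8 CPM). Itgal was high in acceptors of experiment 3 at 30 min (42.35 CPM) and 60 min (37.07 CPM), and in the aSyn-only sample of experiment 4 (229.1 CPM). These were 7 of 100 sets of 4 values examined (7%). The limit was Dixon's 95% critical value, which chance passes in about 1 in 20 independent sets, and these sets share samples and experiments.

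At several times every donor sample moved one way from its aSyn-only sample and every acceptor sample the other way from its untreated sample. For Itga9 the donor effect minus the acceptor effect, on the log2 scale, was 1.359 at 0 min, 0.9498 at 15 min and 1.125 at 60 min, with donors up and acceptors down. A test of the difference itself did not pass across all genes in edgeR (adjusted p = 1 at these times, or 0.37, 0.51 and 0.25 with the replicate block). At 300 min it was 1.183, given without a test because Itga9 was chosen at that time. For Itgav at 60 min it was -0.3505, with donors down and acceptors up (adjusted p = 1, or 0.50 with the replicate block).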

How the results depend on the processing

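The smallest count of a member in a sample was 62, and groups of 3 or 4 samples limit what the tests can call. For 7 members (Itgam, Itgav and Itgb5 left out) with aSyn alone and between donors and acceptors, there were 528 alternative values for 48 fold changes, without Itga9 at 300 min. Of these, 457 kept direction and side of the threshold, 27 newly passed, 43 no longer passed and 1 reversed. The reversal was Itga5 in donors against acceptors at 300 min without replicate 4 (-0.2408, and up to 0.2165 on leaving out another replicate). The cause was not tested. Over all 187 fold changes of the 10 members in 19 comparisons, the sign differed in 66 of 2057 alternatives, 0 of them called before or after.

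Members called with aSyn alone numbered 2, against 6 with the replicate block, 5 with the untreated libraries apart, 1 with no filter, 0 with only the groups compared and 0 to 1 on leaving out a replicate. For donors against acceptors at 0 min the count was 1, against 4 with the block and 0 to 2 on leaving out a replicate. At 15 min it was 3, against 5 with the block, 0 with only the groups compared and 0 to 3 on leaving out a replicate. At 30 min it was 3, against 1 with only the groups compared and 1 to 2 on leaving out a replicate. At 60 min it was 2, against 5 with the block, 0 with only the groups compared and 0 to 1 on leaving out a replicate. At 150 min it was 1, against 4 with the block, 3 with DESeq2, 0 with only the groups compared and 0 to 1 on leaving out a replicate. At 300 min it was 0 of 9, against 1 with the block and 1 with DESeq2. The counts at 0 to 150 min include Itga9, which was the single call at 0 and 150 min without the block. Acceptors at 30 min against untreated cells gave 0, against 1 with the block. Change over time in donors gave 0, and 0 to 1 on leaving out a replicate. The counts of members in the other comparisons, all 0, stayed at 0 under every alternative run, and RLE factors changed no count of members. Fits with only the groups compared use fewer samples to estimate the spread. For alternatives other than the block, calls over all genes are given only for aSyn alone and at 15 min, and in part. A change in a count of members is therefore not read as a result about the members.

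Over all genes, aSyn-only against untreated cells gave 329 calls, against 2524 with the replicate block, 618 with the untreated libraries apart, 616 with DESeq2, 37 with only the groups compared and 73 to 301 on leaving out a replicate. Donors against acceptors at 15 min gave 117 calls, against 1260 with the block, 214 with DESeq2, 18 with only the groups compared and 36 to 152 on leaving out a replicate.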
